A study of Homo sapiens with 6 samples.

Results

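The genes described here are 10 core components of focal adhesions and their actin linkage: VCL, ZYX, TLN1, PXN, FLNA, ACTN1, ACTN4, TNS4, PTK2 and SRC. They were chosen by name, as protein-coding rows of the deposited expression table, and all 10 were found among its 58735 genes, of which 19951 are protein-coding. Their levels were measured by RNA-seq in NCI-N87 cells, an established human gastric cancer cell line, to see which transcripts differ when SCAMP1 is depleted. SCAMP1 encodes a membrane protein of secretory and recycling vesicles. The 3 shNC libraries came from cells given the control lentivirus and the 3 shScamp1 libraries from cells given a lentivirus with an shRNA against SCAMP1. The series text calls these groups shCtrl and shS1#1. Cells of both groups were exposed to virus with polybrene for 24 h, selected with puromycin at 2 μg/ml as stable populations, and harvested at about 80% confluence. A single shRNA was sequenced, so its effects and those of SCAMP1 loss cannot be told apart. By the paper's methods the control was the empty vector. Effects of expressing any shRNA therefore cannot be told apart from those of SCAMP1 loss either.

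Focal adhesions are the sites where integrin receptors, bound to extracellular matrix outside the cell, are tied to actin filaments inside it. Talin binds the integrin tail, vinculin reinforces the link to actin when it is under force, and paxillin and zyxin are scaffolds that collect further proteins. The tyrosine kinases FAK (encoded by PTK2) and SRC signal from these sites, while filamin and the α-actinins cross-link the attached filaments. In gastric and other epithelial cells the same machinery is used for spreading, migration and anchorage-dependent growth.

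The libraries held 14311769 to 15988700 reads on genes. They were labelled as biological replicates, with nothing on separate infections, so p-values measure the spread between these samples, which may be technical. The target gene followed the labels. SCAMP1 was at 12.6, 12.1 and 11.5 FPKM (fragments scaled to exon length and to library size) in shNC replicates 1 to 3 and at 1.70, 1.37 and 1.99 in shScamp1 replicates 1 to 3. Its log2 fold change was -2.78 (SE 0.14, limma with Benjamini-Hochberg adjusted p = 0.000248). Epithelial markers were abundant (8 of 10 at or above 0.5 FPKM on average, CDX1 and TFF3 at 0 in every library), with a summed level of 4357 to 4575 FPKM in shNC and 7949 to 8665 FPKM in shScamp1. Markers of other cell types were near 0. The 8 fibroblast markers summed to 0.533 to 0.707 FPKM in shNC and 0.570 to 0.851 in shScamp1, with COL1A2, DCN, LUM and PDGFRA at 0. The 5 endothelial markers summed to 0.201 to 0.316 and 0.566 to 0.719 FPKM, and the 6 leukocyte markers to 1.76 to 2.01 and 1.48 to 2.86 FPKM.

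One library stood apart. The counts of shScamp1 replicate 2 differed from those of shScamp1 replicates 1 and 3 with a chi-square of 44.1 and 34.5 per gene, against 3.10 between replicates 1 and 3 and 1.97 to 2.58 among the shNC libraries. Its mitochondrial share of reads was 9.21%, against 6.09% to 6.78% in the other 5 libraries. Member results are therefore given with all 6 libraries and again without it, and so are counts over lists, differences between relatives, and other named genes whose call or sign depends on it.

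The 10 genes spanned a wide range of levels per length. In shNC cells the mean ran from 296 ± 13.9 FPKM for ACTN4 to 10.3 ± 0.0768 FPKM for PTK2 (SD, n = 3), with FLNA, TNS4, ACTN1, TLN1, VCL, PXN, SRC and ZYX in between in that order. All were well expressed, at percentiles 72.7 to 99.4 of the genes tested. ACTN4 alone gave 47.0% to 51.9% of the summed FPKM of the 10 genes. The shNC ranges overlapped for the neighbours ACTN1 and TLN1, VCL and PXN, and SRC and ZYX, and not for the other neighbours. In shScamp1 the order by mean was the same except that TLN1 lay above ACTN1.

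**Figure D1:**
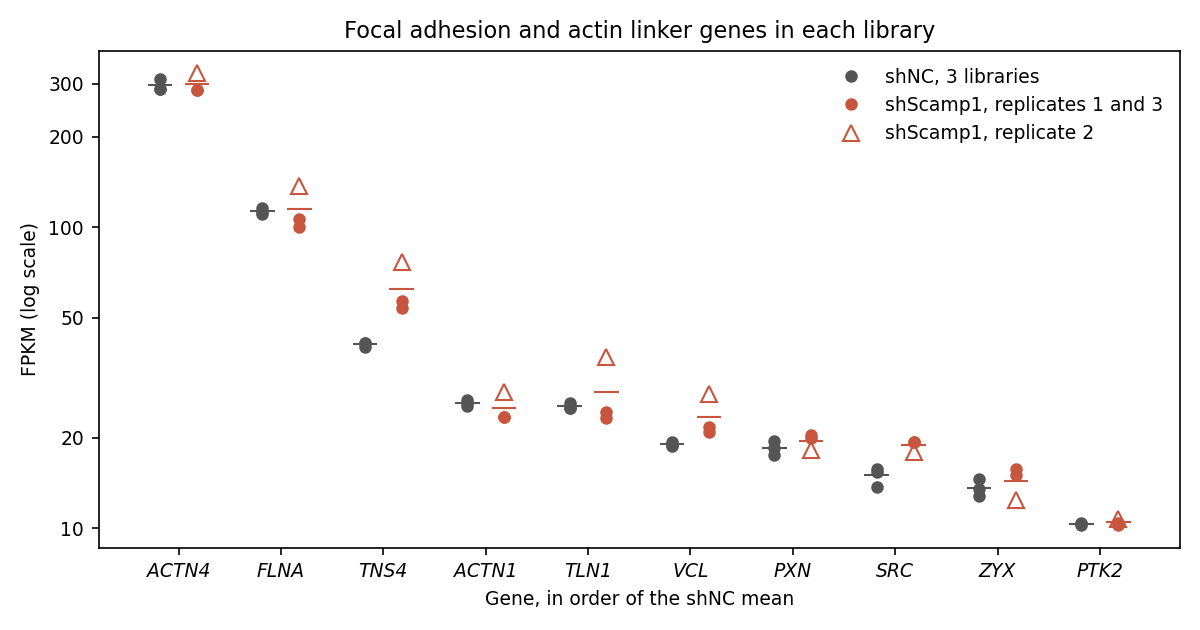
Level of each of the 10 genes in each library, in FPKM on a log axis, with 3 shNC and 3 shScamp1 libraries per gene and shScamp1 replicate 2 marked. TNS4, VCL and SRC are the genes whose groups do not overlap, and ACTN4 lies highest at 285 to 325 FPKM.

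Of the 10 genes, TNS4 and SRC were higher in shScamp1 cells and none was lower at an adjusted p under 0.05 (limma, Benjamini-Hochberg over all 15556 genes tested). That is 2 of 10, beside 14.0% of all genes tested (8.82% higher and 5.17% lower), so the count is near the background. No member passed a log2 fold change of 1 in either direction as well, against 3.16% of all genes. None did so without shScamp1 replicate 2 (3.49% of all genes) or with the gene length trend described later removed (3.25%). An unadjusted limma p under 0.05 was reached by 3 of 10 members, beside 4782 of the 15556 genes tested. The groups did not overlap for 3 of 10 members (TNS4, VCL and SRC), against 41.4% of all genes. Without shScamp1 replicate 2, TNS4, SRC and VCL were higher and ACTN1 was lower, 4 of 10 against 28.3% of all genes. The groups then did not overlap for 9 of 10 members, PTK2 being the exception, against 56.8%. The median log2 fold change of the members was 0.07 with all libraries and 0.06 without that library, beside medians of -0.02 in both fits over all genes. In these bulk libraries, fewer cells of a type and less RNA per cell cannot be told apart. With libraries scaled to equal totals, the called genes split into 47.3% higher, against 63.0% with the deposited scaling, and 1 member (TNS4) was called.

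TNS4 encodes tensin 4, also called Cten, a short tensin that binds integrin tails but lacks the actin-binding region of the larger tensins. It had the largest difference among the 10 genes. TNS4 (ENSG00000131746, hg38 chr17:40475828-40501597, minus strand) was at 40.1, 41.1 and 41.2 FPKM in shNC replicates 1 to 3 and at 53.9, 76.9 and 56.7 in shScamp1 replicates 1 to 3. Every shScamp1 library lay above every shNC library, and shScamp1 replicate 2 was the highest. TNS4 rose 1.51-fold (log2 fold change 0.60, SE 0.14, 95% interval 0.26 to 0.93, limma adjusted p = 0.0382). With that library left out it rose by a log2 fold change of 0.44 (limma adjusted p = 0.00114). The limma call was lost when any 1 shNC library was left out (adjusted p 0.125 to 0.133) or shScamp1 replicate 3 (0.0789). The level rested on 3079 to 5104 reads per library, and no other annotated gene overlapped TNS4.

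SRC encodes the founding member of the Src family of tyrosine kinases, which phosphorylates FAK, paxillin and p130Cas at adhesions. SRC (ENSG00000197122, chr20:37344685-37406050, plus strand) was at 13.7, 15.4 and 15.8 FPKM in shNC and at 19.3, 17.9 and 19.3 in shScamp1 replicates 1 to 3. Here shScamp1 replicate 2 was the lowest of its group and still lay above all shNC libraries. SRC rose 1.26-fold (log2 fold change 0.33, SE 0.08, 95% interval 0.14 to 0.52, limma adjusted p = 0.0408), and by a log2 fold change of 0.37 without shScamp1 replicate 2 (limma adjusted p = 0.0127). It lost the limma call when any of the other 5 libraries was left out (adjusted p 0.0883 to 0.144). Its level rested on 1407 to 1825 reads in each library, and it overlapped no annotated gene.

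FAK, the kinase that is recruited to clustered integrins and provides a docking site for SRC, had the smallest spread between libraries of a group, relative to its mean, among the members. PTK2 (ENSG00000169398, chr8:140657900-141002216, minus strand) was at 10.2, 10.4 and 10.3 FPKM in shNC and at 10.2, 10.7 and 10.4 in shScamp1. The groups overlapped with all libraries and also without shScamp1 replicate 2. Its log2 fold change was 0.02 (SE 0.06, 95% interval -0.12 to 0.16, limma adjusted p = 0.858). That interval bounds a difference in this fit alone, without showing that the levels are equal. With the gene length trend described later removed, the value was -0.11 (95% interval -0.31 to 0.10, limma adjusted p = 0.417).

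Vinculin and talin form the mechanical link between integrin and actin. VCL (ENSG00000035403, chr10:73995193-74121363, plus strand) was at 18.7, 18.9 and 19.4 FPKM in shNC and at 21.7, 28.0 and 20.8 in shScamp1. The groups did not overlap, with shScamp1 replicate 2 far above the rest. The log2 fold change was 0.29 (SE 0.12, limma adjusted p = 0.156) with all libraries. Without that library VCL was higher by 0.16 on the log2 scale (limma adjusted p = 0.0325). The SD of VCL was 3.90 FPKM over the 3 shScamp1 libraries and 0.325 FPKM over the 3 shNC libraries. Of the exon bases of VCL, 1109 (11.1%) lie under exons of AP3M1 on the opposite strand, which had a log2 fold change of -0.11 (limma adjusted p = 0.321). Whether the counting used strand is not given in the sources used here, so reads from that stretch are uncertain.

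TLN1 encodes talin-1, which activates integrins as well as linking them. TLN1 (ENSG00000137076, chr9:35696948-35732395, minus strand) was at 25.1, 25.0 and 26.1 FPKM in shNC and at 23.2, 37.2 and 24.4 in shScamp1. Replicates 1 and 3 of shScamp1 lay below all shNC libraries and replicate 2 lay above them all. The log2 fold change changed sign with that library, from 0.12 (SE 0.18, limma adjusted p = 0.692) with it to -0.10 (limma adjusted p = 0.155) without it. TLN1 shared 61 exon bases with CREB3 on the opposite strand.

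The LIM-domain scaffolds paxillin and zyxin did not pass the test in either fit. Paxillin is a docking platform for FAK and vinculin, and zyxin marks mature adhesions and stress fibres, where it recruits actin assembly factors. PXN (ENSG00000089159, chr12:120210439-120265771, minus strand) was at 18.5, 17.5 and 19.5 FPKM in shNC and at 19.9, 18.2 and 20.4 in shScamp1. ZYX (ENSG00000159840, chr7:143381080-143391111, plus strand) was at 13.4, 12.8 and 14.6 FPKM in shNC and at 15.0, 12.4 and 15.7 in shScamp1. In both genes shScamp1 replicate 2 was the lowest of its group and the only one inside or below the shNC range. The log2 fold change was 0.07 for PXN (95% interval -0.11 to 0.26, limma adjusted p = 0.545) and 0.07 for ZYX (95% interval -0.19 to 0.33, limma adjusted p = 0.691). Without shScamp1 replicate 2 the values were 0.12 (limma adjusted p = 0.146) and 0.17 (limma adjusted p = 0.110). Both genes overlap others on the opposite strand. PXN-AS1 covers 918 exon bases of PXN (12.3%) at 0.788 FPKM, and EPHA1, which rose by 0.35 on the log2 scale (limma adjusted p = 0.0164), covers 82 exon bases of ZYX (2.35%). ZYX had the fewest reads of the members, 592 to 801 per library.

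The actin cross-linkers were the most abundant group. Filamin A holds actin filaments in networks and binds integrin tails, and the α-actinins, antiparallel rods encoded by ACTN1 and ACTN4, bundle filaments and bind vinculin. ACTN4 (ENSG00000130402, chr19:38647649-38731583, plus strand) was at 289, 288 and 313 FPKM in shNC and at 285, 325 and 287 in shScamp1. FLNA (ENSG00000196924, chrX:154348524-154374638, minus strand) was at 112, 111 and 116 FPKM in shNC and at 100, 138 and 106 in shScamp1. ACTN1 (ENSG00000072110, chr14:68874143-68979440, minus strand) was at 26.0, 25.5 and 26.7 FPKM in shNC and at 23.4, 28.4 and 23.4 in shScamp1. In all 3 genes shScamp1 replicate 2 lay above every shNC library and shScamp1 replicates 1 and 3 lay below every one. With all libraries the log2 fold change was 0.01 for ACTN4 (95% interval -0.20 to 0.22, limma adjusted p = 0.945), 0.01 for FLNA (-0.29 to 0.31, 0.967) and -0.06 for ACTN1 (-0.29 to 0.16, 0.682). Without shScamp1 replicate 2 it was -0.05 for ACTN4 (limma adjusted p = 0.462), -0.13 for FLNA (0.0651) and -0.16 for ACTN1 (0.0298), so ACTN1 was called lower in that fit alone of these 2. CAPN12 on the opposite strand covers 868 exon bases of ACTN4 (14.2%) and averaged 0.504 FPKM.

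**Figure D2:**
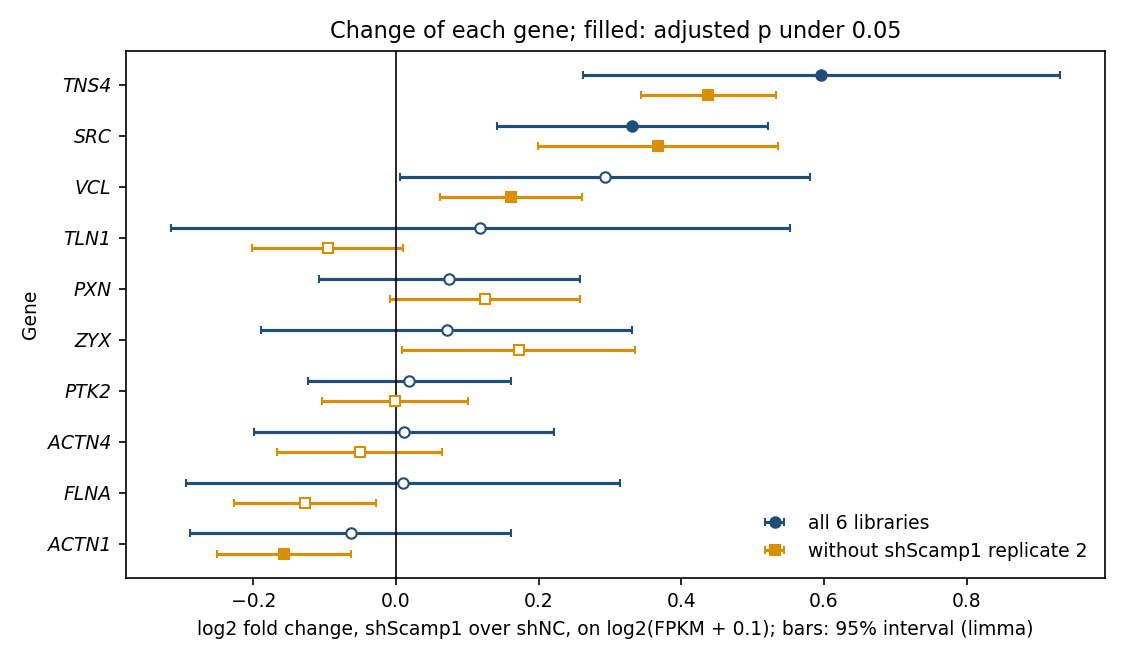
Log2 fold change of each gene, shScamp1 over shNC, on log2(FPKM + 0.1), with 95% intervals, for all 6 libraries and without shScamp1 replicate 2. The intervals of TNS4, SRC and VCL lie above 0 in both fits, although VCL is not called with all libraries, and the intervals are narrower without that library.

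Actin linker genes are known targets of serum response factor, which binds the CArG box, so the promoter windows of the members were searched for it on both strands. Windows ran from 250 bases before to 50 bases after each RefSeq start (GRCh38.p14), and 7 of the 10 members had at least 1 of them, 12 windows in all. A CArG box lay in 1 window each of ACTN1 and FLNA and in 1.29% of all 35116 windows. The boxes are shown in capitals with 10 bases on each side, 5′ to 3′ on the minus strand that carries both genes.
ACTN1: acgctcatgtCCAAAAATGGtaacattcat
FLNA: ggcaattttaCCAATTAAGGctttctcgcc
The ACTN1 stretch is chr14:68977718-68977747, with its box ending 162 bases before a start site. It lies inside the annotated span of ACTN1, between exons. The FLNA stretch is chrX:154374709-154374738, with its box ending 85 bases before the start, outside FLNA and in an exon of the antisense gene AC245140.3. SRF itself had a log2 fold change of -0.15 (limma adjusted p = 0.221), or -0.19 (0.0478, called lower) without shScamp1 replicate 2. Searched the same way, TGANTCA (AP-1) lay in a window of ACTN4 and in 7.71% of all windows, and GGAATG (TEAD) in windows of VCL, PXN and ACTN1 and in 14.0% of all windows. A match describes the letters only.

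The departure of shScamp1 replicate 2 varied between the members. Measured against the mean of shScamp1 replicates 1 and 3 on the log2 scale, it was 0.64 for TLN1, 0.48 for TNS4, 0.41 for FLNA, 0.40 for VCL, 0.28 for ACTN1 and 0.19 for ACTN4. It was 0.06 for PTK2, -0.11 for SRC, -0.15 for PXN and -0.30 for ZYX. Across all genes longer than 1 kb the median departure of this library followed gene length (it was 0.08 in shorter genes), from -0.34 for genes of 1 to 2 kb to 0.34 for genes over 12 kb, while the shNC libraries stayed between -0.03 and 0.03 in every length class. Over the same classes the medians ran the other way in shScamp1 replicate 1 (0.24 to -0.24) and replicate 3 (0.14 to -0.10), where each is measured against a pair that includes replicate 2. The members followed this only in part. PTK2, the longest at 13742 exon bases, departed by 0.06, and TNS4, at 4847 bases, departed by 0.48 where its length class had a median of -0.03. With the length trend of each library removed, the members called were TNS4 (log2 fold change 0.59, limma adjusted p = 0.0365) and SRC (0.30, 0.0456), again 2 of 10, beside 18.4% of all genes (10.5% higher and 7.84% lower). What set this library apart was not tested.

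**Figure D3:**
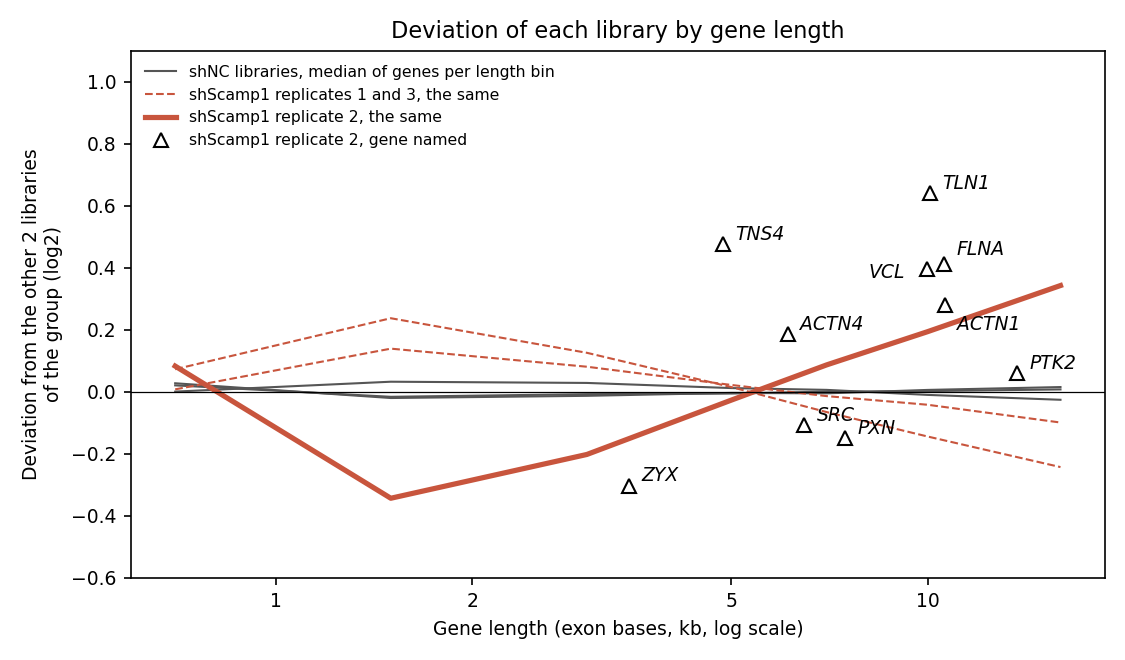
Deviation of each library from the other 2 of its group (log2, vertical axis) against gene length in exon bases (kb, log axis). Lines are medians over all tested genes per length class and triangles are the 10 genes in shScamp1 replicate 2, where TLN1 and TNS4 lie highest and ZYX lowest.

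Each member was then set against a close relative in the same library, which removes the scaling between libraries but not a trend with gene length. Lengths differed within pairs, at 4847 exon bases for TNS4 and 11797 for TNS3, and 13742 for PTK2 and 7933 for PTK2B. They were 3482 for ZYX and 25535 for LPP. The value compared was the per-library log2 difference of the FPKM values. TNS4 lay higher against TNS3 (a full-length tensin), from 0.956 to 1.02 in shNC to 1.52 to 1.67 in shScamp1, without overlap. PTK2 lay lower against PTK2B (Pyk2, the calcium-responsive relative of FAK), from 1.11 to 1.29 in shNC to 0.441 to 0.659 in shScamp1, also without overlap. The groups did not overlap either for PXN against TGFB1I1 (shScamp1 minus shNC 0.33 in the mean log2 difference) and TLN1 against TLN2 (0.07). An exact two-sided permutation test of 3 against 3 cannot go below p = 0.1, which these pairs reached (adjusted p = 0.180 over the 9 pairs compared). No pair could pass a threshold of 0.05, and these directions are descriptions. Leaving out shScamp1 replicate 2, the difference of the means was 0.53 for TNS4 against TNS3, -0.66 for PTK2 against PTK2B, 0.28 for PXN against TGFB1I1 and 0.05 for TLN1 against TLN2.

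Among the relatives, PTK2B rose by 0.63 (limma adjusted p = 0.00666), from a mean of 4.52 ± 0.296 to 7.07 ± 0.479 FPKM (SD, n = 3). TNS3 had a log2 fold change of 0.01 (limma adjusted p = 0.955), and -0.10 (0.135) without shScamp1 replicate 2. TGFB1I1 and TLN2 lay far below their members. PXN made up 91.7% of the summed FPKM of its pair in shNC and 93.3% in shScamp1, and TLN1 92.5% and 92.9%. TGFB1I1 was not called in any fit that left out 1 library (limma adjusted p 0.186 to 0.520). Differences for SRC against YES1 (0.35), ACTN1 against ACTN4 (-0.07), ZYX against LPP (-0.44) and VCL against CTNNA1 (0.04) overlapped between the groups. Leaving out shScamp1 replicate 2 they were 0.47, -0.11, -0.07 and -0.06, so most of the difference for ZYX against LPP rested on that library and the sign for VCL against CTNNA1 turned with it. ACTN1 made up 8.08% of the summed α-actinin FPKM in shNC and 7.73% in shScamp1.

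**Figure D4:**
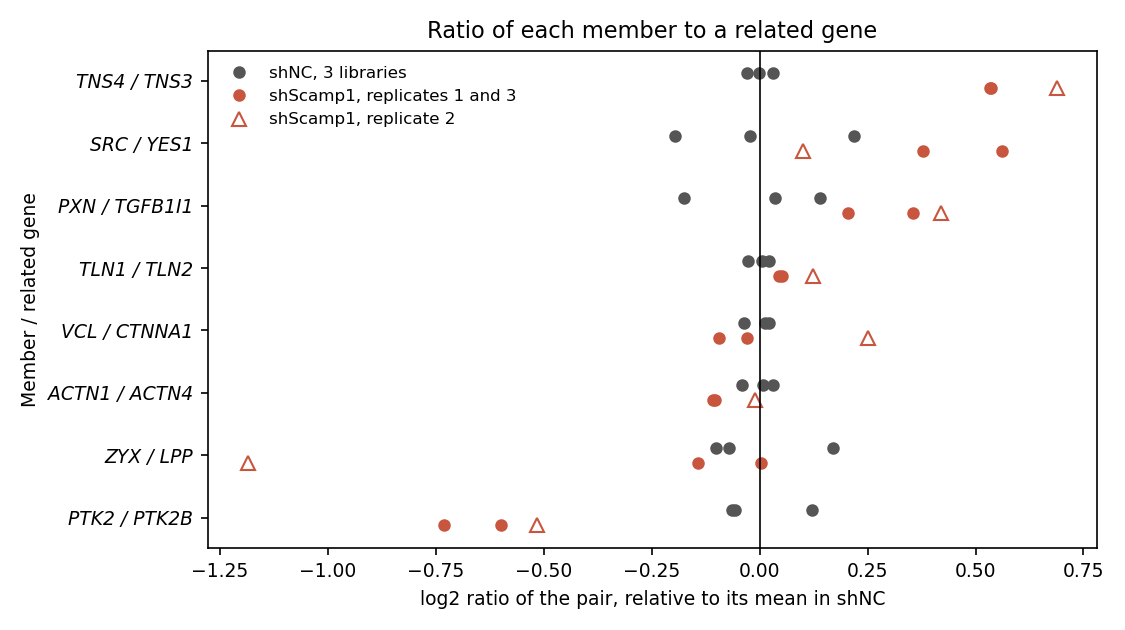
Log2 ratio of each member to its relative in each library, relative to the mean of that pair in shNC (horizontal axis), with 1 row per pair for 8 pairs. Points are 3 shNC and 3 shScamp1 libraries, and PTK2 against PTK2B lies lower in every shScamp1 library while TNS4 against TNS3 lies higher.

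The wider machinery around the members was described with 6 lists of 168 genes, 132 of which passed the filter on low values. Of those 132, 30 were higher and 5 lower in shScamp1, beside 8.82% and 5.17% of all genes, and 54 and 14 without shScamp1 replicate 2, beside 14.9% and 13.4%. The genes tested include non-coding ones, of which these lists hold none. With protein-coding genes alone, 32 of the 132 were higher and 7 lower, beside 1570 and 1056 of 11529 genes. Leaving out any 1 shNC library gave 16 or 17 calls in place of 35, and leaving out shScamp1 replicate 3 gave 21. Higher calls over all genes fell too, from 1372 to between 651 and 674 without 1 shNC library, and to 715 without shScamp1 replicate 3. Lower calls over all genes fell from 805 to between 166 and 185, and to 314. The counts per list below are to be read beside these. The summed epithelial marker level, given above, was also higher in shScamp1, and its part in the result was not tested. The lists did not move alike, as their medians below show.

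Integrins, the receptors that the members attach to, gave 8 higher and 0 lower of 14 tested, with a median log2 fold change of 0.47 against -0.02 over all genes. ITGA2, the α chain of a collagen receptor, rose most, from a mean of 6.57 ± 0.409 to 19.7 ± 4.79 FPKM (SD, n = 3, log2 fold change 1.54, limma adjusted p = 0.00309). ITGB6 (0.84), ITGA6 (0.73), ITGB4 (0.65), ITGA3 (0.65) and ITGB1 (0.44) rose as well on the log2 scale. All of these but ITGB6 lost their call in at least 1 fit that left out 1 library (limma adjusted p up to 0.101). ITGA6 and ITGB4 pair as the laminin receptor of hemidesmosomes. ITGB1, the shared β chain of many matrix receptors, was the most abundant integrin at 78.2 ± 2.07 FPKM in shNC and 106 ± 2.82 in shScamp1. The count was 9 higher and 0 lower without shScamp1 replicate 2 (median 0.40). It was 3 or 4 higher when any 1 shNC library was left out, and 5 higher without shScamp1 replicate 3. Calls over all genes also fell in those fits.

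Cross-linkers and membrane linkers other than the members gave 6 higher and 1 lower of 19 tested, with a median log2 fold change of 0.48. EZR encodes ezrin, which ties actin to the apical membrane, and was at 211 ± 4.03 FPKM in shNC and 391 ± 1.91 in shScamp1 (log2 fold change 0.89, limma adjusted p = 0.000857). Moesin (MSN), of the same family, fell by 0.52 on the log2 scale. LIMA1 (1.00), SPTBN1 (0.74), PLS3 (0.51) and PALLD (0.48) rose. Calls for SPTBN1, PALLD and MSN were lost when any 1 shNC library or shScamp1 replicate 3 was left out (limma adjusted p 0.0541 to 0.131). PLEC, plectin, was the most abundant of the list and did not pass with all libraries (log2 fold change 0.63, limma adjusted p = 0.0891), and was called higher without shScamp1 replicate 2 (0.39, 0.00455). The list gave 10 higher and 2 lower without that library (median 0.26), and 3 higher and 0 lower when any 1 shNC library or shScamp1 replicate 3 was left out.

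Adhesion adaptors gave 10 higher and 3 lower of 37 tested, with a median log2 fold change of 0.04. FHL2, a LIM protein, rose 2.03-fold, and PDLIM5 (0.68), LIMS1 (0.63, the PINCH-1 partner of integrin-linked kinase), BCAR1 (0.57, the SRC substrate p130Cas) and FERMT1 (0.50, kindlin-1) rose on the log2 scale. CTNNA1, α-catenin, a relative of vinculin at cell-cell junctions, rose by 0.25. PARVB, β-parvin, fell by 0.46 on the log2 scale, and LASP1, the most abundant of the list, had a log2 fold change of -0.15 (limma adjusted p = 0.310), or -0.22 (0.00690, called lower) without shScamp1 replicate 2. The adaptors gave 14 higher and 5 lower without that library, 5 higher and 0 lower when any 1 shNC library was left out, and 7 higher and 1 lower without shScamp1 replicate 3. Calls for PDLIM5, FERMT1 and PARVB were lost when any 1 shNC library was left out (limma adjusted p 0.0557 to 0.0838).

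Adhesion kinases and phosphatases other than the members gave 3 higher and 0 lower of 17 tested, with a median log2 fold change of 0.04. These were PTPN12 (0.74), a phosphatase that acts on p130Cas, LIMK2 (0.69), which phosphorylates cofilin, and PTK2B. PTPN11, the most abundant of that list, had a log2 fold change of 0.04 (limma adjusted p = 0.863), or -0.09 (0.182) without shScamp1 replicate 2. The counts were 4 higher and 2 lower without that library, and 3 higher and 0 lower when any other library was left out.

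Actin, myosin and their regulators gave 2 higher and 1 lower of 37 tested, with a median log2 fold change of 0.05. Gelsolin (GSN), which severs filaments, rose by 0.87 and tropomyosin 4 (TPM4) by 0.27 on the log2 scale. The counts were 14 higher and 4 lower without shScamp1 replicate 2, and 1 higher and 0 lower when any other library was left out. TMSB10 (thymosin β10), the most abundant gene of the list, had a log2 fold change of -0.33 (limma adjusted p = 0.504), which turned to 0.03 (0.705) without shScamp1 replicate 2.

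**Figure D5:**
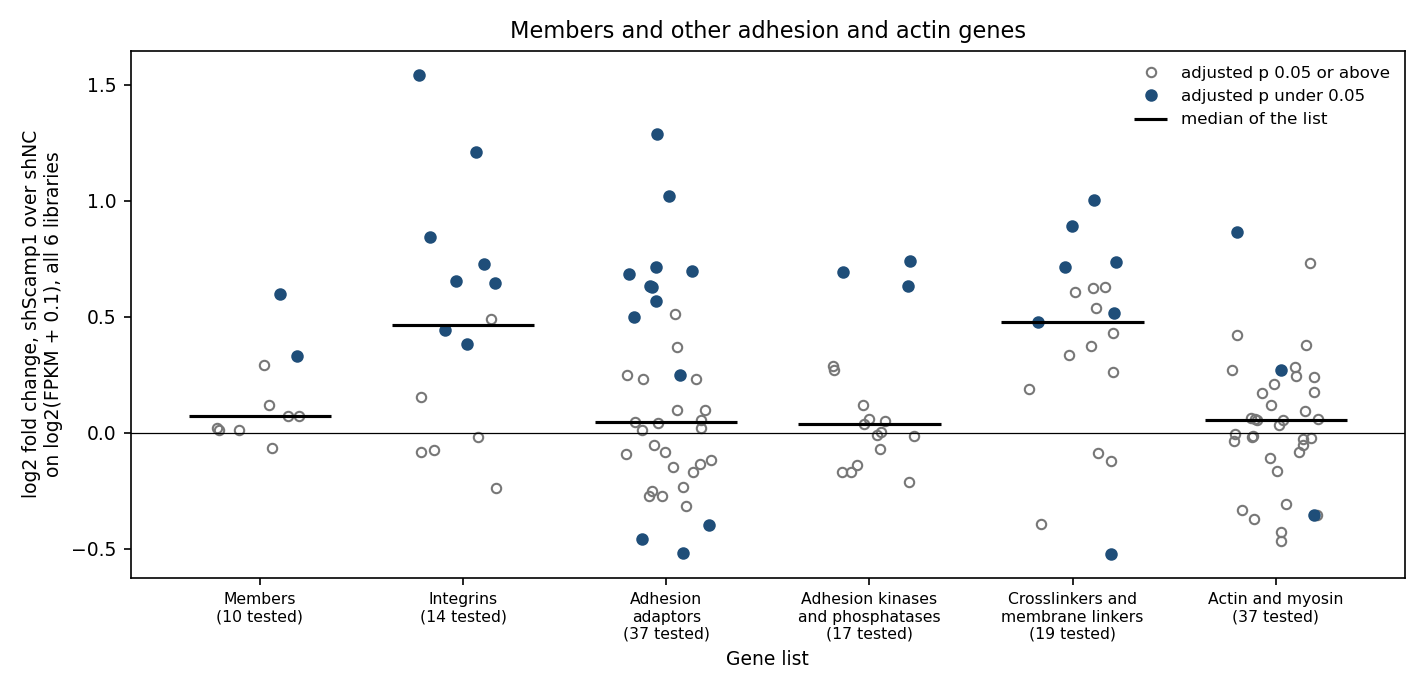
Log2 fold change (shScamp1 over shNC, all 6 libraries, vertical axis) of each tested gene, for the members and 5 lists, with filled points for an adjusted p under 0.05 and a bar at the median of the list. Integrins and cross-linkers have medians of 0.47 and 0.48, and the 10 members a median of 0.07.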

How the data were processed

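RNA-seq was analysed in 6 libraries of NCI-N87 cells, 3 per group. The authors deposited 1 table of gene-level FPKM values. Per the submitters' processing notes, HISAT2 2.0.5, featureCounts 1.5.0-p3, DESeq2 1.20.0 and hg38 were used. Multiplied by length and divided by a step fitted per library, 100% of the non-zero FPKM values lay at whole reads (tolerance 0.01, wider for high counts). They carried median-of-ratios scaling. Strand use in counting is not given in the sources used here.

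The filter kept genes whose mean over the 6 libraries reached 0.5 FPKM, and these were tested on log2(FPKM + 0.1) with limma 3.58.1 in R 4.3.3 (variance trend on, no covariate), with Benjamini-Hochberg adjustment over all genes tested and calls at adjusted p under 0.05. Fold changes on this scale understate the change of low genes. The fit was tested on simulated data without an outlying library or a length trend, and with larger changes than those of the called members. Pairs of relatives were compared by an exact permutation test. Intervals are 95%. Gene overlaps used GENCODE 29. Other scripts ran in Python 3.11.15.

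The members and lists were chosen with earlier results of these data known. The text names SCAMP1, the members and their relatives, up to 6 called genes per list with a mean of at least 5 FPKM by size of change, the most abundant gene per list, and opposite-strand genes overlapping a member. SRF was added after its values were seen. One pair of relatives and 1 list are counted in the totals and not reported here. Alternatives were another pseudocount, filter, variance model or scaling, voom on recovered reads, protein-coding genes alone, the replicate block and each library left out. Removing the trend with gene length was chosen after seeing the data.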

Additional observations from a re-analysis of the deposited data

How the results depend on the processing

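With all 6 libraries 2177 genes, 2 members (TNS4 and SRC) and 35 list genes were called. With the replicate block the limma counts were 958, 0 and 19. Deviations of same-numbered libraries from their group means had correlations of -0.04, 0.03 and 0.07 over genes. Since shScamp1 replicate 2 dominates the deviations of its group, these values cannot show whether same-numbered libraries were handled together. Leaving out 1 library at a time gave 817 to 4374 genes, 0 to 4 members and 16 to 68 list genes. The highest counts came without shScamp1 replicate 2, and without shScamp1 replicate 3 there were 1029 genes, 0 members and 21 list genes. With a log2 fold change above 1 required as well, the counts were 492, 0 and 5. No member was called with no filter on low values (0) or no variance trend (0), and 1 was with equal library totals. In the limma fits that called 0 members, 2 or 3 members had an unadjusted p under 0.05. Over all genes, 3493 to 4602 had one in those fits with the filter kept, of 15554 to 15588 tested. With no filter it was 5814 of 33572. Voom called 2 members and 2759 of 15556 genes. TNS4 kept a log2 fold change of 0.44 to 0.69 over 17 alternatives and lost its call in 7 of them (adjusted p 0.00114 to 0.133). SRC kept 0.26 to 0.37 and lost its call in 9 (adjusted p 0.0127 to 0.144).

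Signs turned for the genes below, none of them called with all libraries. TMSB10 (-0.33) and TLN1 (0.12) had the largest values among them with all libraries. With equal library totals the log2 fold change was -0.064 for ACTN4, -0.065 for FLNA, -7.95e-05 for PXN, -0.0034 for ZYX, -0.056 for PTK2, -0.038 for PTPN11, -0.027 for TLN2 and -0.064 for TNS3. With equal medians it was -0.0019 for ACTN4, -0.0027 for FLNA and -0.0020 for TNS3. With the length trend removed it was -0.012 for ACTN4, -0.084 for FLNA, -0.11 for PTK2, -0.00040 for PTPN11, -0.10 for TLN2 and -0.097 for TNS3. Over the fits that left out 1 library, the log2 fold change ran from -0.051 to 0.049 for ACTN4, -0.13 to 0.099 for FLNA, -0.096 to 0.24 for TLN1, -0.0012 to 0.035 for PTK2, -0.094 to 0.12 for PTPN11, -0.56 to 0.035 for TMSB10, -0.14 to 0.16 for TLN2, -0.097 to 0.083 for TNS3 and -0.10 to 0.073 for YES1. The cause was not tested. SCAMP1 kept its direction and its call in every alternative run. Differences between relatives could not pass 0.05 in any of these fits, so they have no call to keep. When 1 library was left out, ZYX against LPP ran from -0.66 to -0.07 and VCL against CTNNA1 from -0.06 to 0.11.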
